A study of Mus musculus with 16 samples.

Results

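Myeloid C-type lectin receptors were followed in the monocytic and granulocytic myeloid-derived suppressor cells (M-MDSCs and G-MDSCs) of melanoma-bearing mice. The genes were 10 of the 24421 gene symbols counted, chosen by name: Clec4a1, Clec4a2, Clec4a3, Clec4d, Clec4e, Clec4n, Clec5a, Clec7a, Clec12a and Olr1. M-MDSCs (CD11b high, Ly6C+ Ly6G-) and G-MDSCs (CD11b high, Ly6C- Ly6G+) were sorted from the spleens of C57BL/6 mice, 4 WT and 4 Nlrp3-/-, all of which carried a subcutaneous B16.F10 melanoma. Nlrp3-/- mice lack the inflammasome sensor NLRP3 in the whole body from birth, through an EGFP cassette in exon 2 of Nlrp3, while the implanted B16.F10 tumor cells, a mouse melanoma line, keep the gene. Both subsets of every mouse were sequenced, 1 mouse per RNA sample, which gave 16 libraries in 4 groups of 4. The age of the mice and the day of the sort are not given in the labels.

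C-type lectin receptors of phagocytes bind sugars and lipids of microbes, or products of damaged cells, through a lectin-like domain outside the cell. Activating members signal through the kinase Syk, either by a motif in their own tail or through the partner chains FcRγ (Fcer1g), DAP12 (Tyrobp) and DAP10 (Hcst), and Syk then acts through CARD9, BCL10 and MALT1 on NF-kB. Inhibitory members carry a tail motif that recruits the phosphatases SHP-1 (Ptpn6) and SHP-2 (Ptpn11). Olr1 encodes LOX-1, a lectin-like scavenger receptor for oxidized low-density lipoprotein that is used as a surface marker of granulocytic MDSCs in humans.

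All 10 genes lie on chromosome 6 of mm10. Clec4a1, Clec4a3, Clec4a2, Clec4n, Clec4d and Clec4e follow each other within 368 kb (122921848 to 123289870), Clec12a, Clec7a and Olr1 within 164 kb (129342691 to 129507165), and Clec5a stands alone at 40574894 to 40585821. The annotation types 9 of them as protein coding and Clec7a as a polymorphic pseudogene. Promoters of 9 of the 10 genes were at hand from RefSeq (GRCm38.p6, the assembly of mm10), each running from 250 bases before to 50 after the start of transcription. Clec4n was not among them. The promoters of Clec4a1, the gene with the largest excess in M-MDSCs, of Clec4d, the gene with the largest excess in G-MDSCs, of its neighbor Clec4e and of Olr1 are shown 5′ to 3′ on the strand of the gene, with the motif matches in capitals. They lie at chr6:122921598-122921897 (plus strand), chr6:123261857-123262156 (plus), chr6:123289822-123290121 (minus) and chr6:129507116-129507415 (minus).
Clec4a1: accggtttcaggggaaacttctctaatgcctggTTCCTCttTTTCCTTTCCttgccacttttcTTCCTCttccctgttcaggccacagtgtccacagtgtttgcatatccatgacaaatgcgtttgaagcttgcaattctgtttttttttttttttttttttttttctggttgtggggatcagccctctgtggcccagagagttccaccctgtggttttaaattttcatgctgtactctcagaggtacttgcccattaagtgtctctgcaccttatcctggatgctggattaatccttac
Clec4d: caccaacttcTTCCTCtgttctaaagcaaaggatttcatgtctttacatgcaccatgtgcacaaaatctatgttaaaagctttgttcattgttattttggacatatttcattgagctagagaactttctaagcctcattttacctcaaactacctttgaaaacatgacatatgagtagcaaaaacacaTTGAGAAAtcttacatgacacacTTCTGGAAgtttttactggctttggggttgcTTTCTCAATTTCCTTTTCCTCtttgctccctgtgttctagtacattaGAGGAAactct
Clec4e: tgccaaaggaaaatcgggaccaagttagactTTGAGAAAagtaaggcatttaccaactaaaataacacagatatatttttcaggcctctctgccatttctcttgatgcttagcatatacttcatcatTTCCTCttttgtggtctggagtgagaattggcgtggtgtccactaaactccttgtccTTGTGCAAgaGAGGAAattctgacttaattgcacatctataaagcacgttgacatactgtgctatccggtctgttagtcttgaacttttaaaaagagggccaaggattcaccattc
Olr1: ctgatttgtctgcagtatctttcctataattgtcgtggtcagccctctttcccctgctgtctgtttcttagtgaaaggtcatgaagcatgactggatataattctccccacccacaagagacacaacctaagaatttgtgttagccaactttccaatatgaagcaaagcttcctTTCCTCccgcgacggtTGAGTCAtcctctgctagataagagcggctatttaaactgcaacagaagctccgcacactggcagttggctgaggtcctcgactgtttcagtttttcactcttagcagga
Capitals mark, on either strand, TTNNGNAA (the core bound by C/EBP factors), GAGGAA (PU.1), TGANTCA (AP-1) and a trio of motifs with free bases between their parts. These were GGG-NN-TT-N-CC (NF-kB), GAAA-NN-GAAA (interferon response element) and GGAA-NN-GAAA (IRF with PU.1), and the last may overlap a GAGGAA match. In Clec4d a C/EBP match, the interferon response element and a PU.1 match run into each other around the start site. Of the 9 genes, 8 held GAGGAA in at least 1 promoter entry, and 28.3% of 32851 promoters of the same length held it. The longer form GAGGAAGT was held by 0 of the genes and by 3.2% of promoters. Clec4a3 and Clec7a had more than 1 entry each. The members are thus counted per gene and the shares per promoter, which are unlike measures. The short form was chosen after the long one had given no match. TTNNGNAA was found for 5 genes (40.7% of all promoters) and TGANTCA for 3, namely Olr1, Clec12a and Clec4a2 (7.81%). The motif of IRF with PU.1 was found for Clec4a1 and Clec7a (2.72%), the interferon response element for Clec4d (3.44%) and the NF-kB motif for 0 (4.79%). A match is a string of letters and no measurement of binding.

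Levels are given as CPM (counts scaled to a common library size) after TMM normalization over all 16 libraries, in the order of replicates 1 to 4. Libraries held 2295967 to 6079866 counts on genes, and 3 counts, the smallest amount treated as present, corresponded to 0.349 to 1.17 CPM. QuantSeq reads the 3′ end of transcripts, so that a count does not grow with gene length, and the genes are compared between groups and not with each other. Counts of Nlrp3 itself fell from 219 to 632 down to 4 to 11 among M-MDSCs of the knockout, and among its G-MDSCs from 744 to 1365 down to 21 to 59. Monocyte markers summed to 8555 to 11649 CPM in WT and to 9670 to 12666 CPM in Nlrp3-/- M-MDSCs. In G-MDSCs they summed to 979 to 1428 CPM in WT and to 1337 to 1620 CPM in Nlrp3-/- mice. Only WT replicate 1 of the G-MDSCs lay within that Nlrp3-/- range. The 11 neutrophil markers on the list of 12 that were counted (Ly6g was not) summed to 116948 to 177451 CPM in G-MDSCs to 1494 to 1917 CPM in 3 WT M-MDSC libraries, to 8985 CPM in WT M-MDSC replicate 2 and to 2260.2 to 2596 CPM in Nlrp3-/- M-MDSCs.

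The subset of the cell separated the lectin receptors more than the genotype of the mouse did, as it did over all genes tested. In WT mice 5 of the 10 genes were higher in G-MDSCs (Clec4d, Clec4n, Clec5a, Clec7a and Clec4e), 2 were higher in M-MDSCs (Clec4a1 and Clec4a3), and Clec4a2, Clec12a and Olr1 did not pass the test. The same 7 genes passed in the same direction in Nlrp3-/- mice. A call needed a fold change above 1.5 and an adjusted p (Benjamini-Hochberg, over all genes tested) below 0.05 in the quasi-likelihood test of edgeR. In sorted bulk samples such as these, fewer cells of a type and less RNA per cell cannot be told apart. Of all genes tested, 26.3% were called higher and 27.1% lower in G-MDSCs of WT mice, and 23.7% and 27.4% in those of Nlrp3-/- mice. Between genotypes these shares were 3.51% and 7.1% in M-MDSCs and 4.7% and 11.7% in G-MDSCs. Groups did not overlap for 7 of the 10 genes in WT mice, against 51.9% of all genes, and for 8 in Nlrp3-/- mice, against 50.2%. The median log2 fold change of the 10 genes was 1.28 in WT and 1.17 in Nlrp3-/- mice, beside medians of -0.05 and -0.12 over all genes tested. With library size as the only scaling, the medians over all genes moved to -0.79 and -0.83, and 81.3% and 81.5% of calls were lower in G-MDSCs in place of 50.8% and 53.6%. The 7 genes kept their calls under that scaling, Clec12a joined them with lower levels in G-MDSCs (log2 fold change -0.91 and -1.13), and Clec4a2 turned to a negative value.

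**Figure D1:**
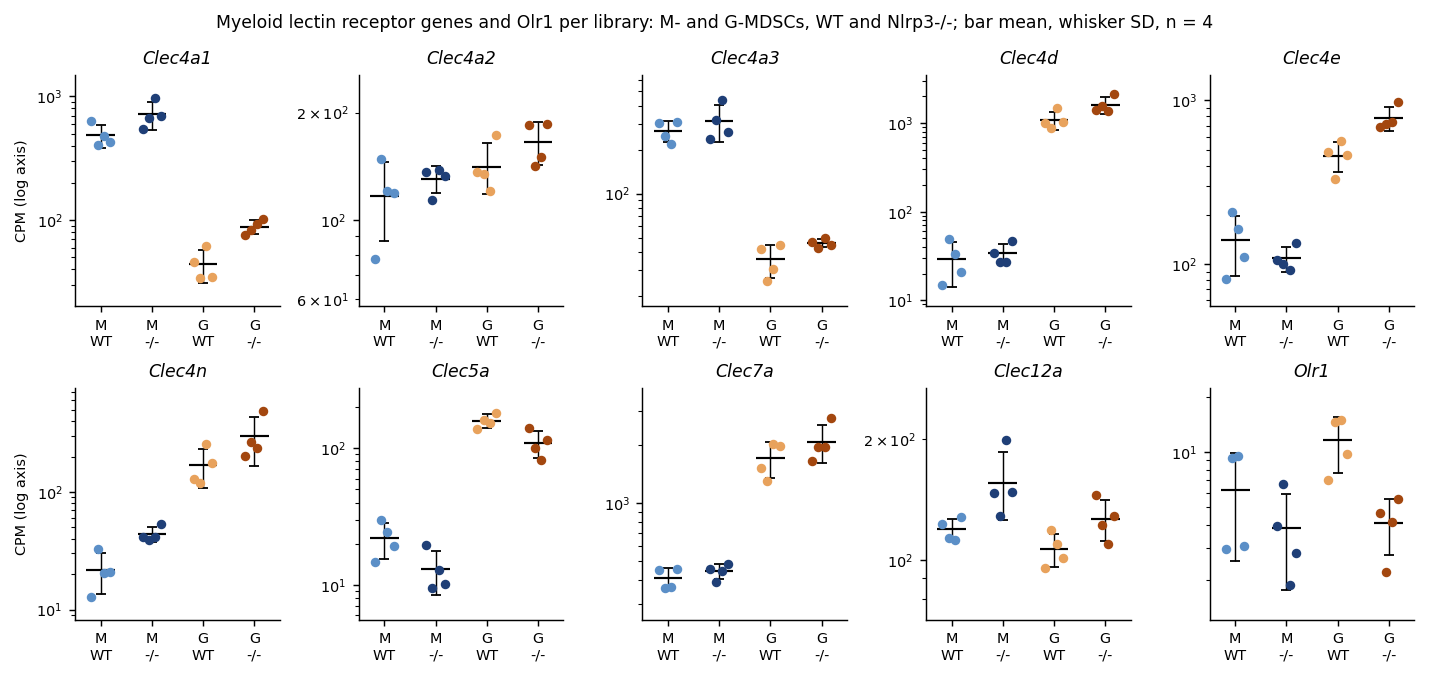
CPM (log axis) of each of the 10 genes in M-MDSCs and G-MDSCs of WT and Nlrp3-/- (-/-) mice, with 1 point per library, the mean as a bar and the SD as whiskers (n = 4). Clec4d, Clec4e, Clec4n, Clec5a and Clec7a sit higher in all 8 G-MDSC libraries than in all 8 M-MDSC libraries, and Clec4a1 and Clec4a3 lower.

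Clec4d, Clec4e and Clec4n encode MCL, Mincle and Dectin-2, receptors for mycobacterial glycolipids and fungal mannans that signal through FcRγ. Clec4d stood at 14.9, 49.6, 33.2 and 20.9 CPM in WT and at 34.7, 27.5, 27.4 and 46.4 CPM in Nlrp3-/- M-MDSCs. In G-MDSCs it reached 992, 889, 1467 and 1019 CPM in WT and 1405, 1570.3, 1376 and 2114 CPM in Nlrp3-/- mice. Every G-MDSC library was thus far above every M-MDSC library, and replicate 2, the WT M-MDSC library with the most neutrophil marker RNA, also had the most Clec4d of its group. The log2 fold change of G-MDSCs over M-MDSCs was 5.19 (SE 0.37, adjusted p = 3.7e-07, 36.4-fold) in WT and 5.44 (SE 0.25, adjusted p = 7e-10, 43.5-fold) in Nlrp3-/- mice. Between genotypes the libraries of M-MDSCs overlapped and the log2 fold change was 0.21 (SE 0.33, adjusted p = 0.707). In G-MDSCs it was 0.48 (SE 0.19, adjusted p = 0.102), and only the WT library of replicate 3 lay within the range of the Nlrp3-/- libraries. It passed the test without that library (0.67, adjusted p = 0.0228), with library size as the only scaling (0.59, adjusted p = 0.0432) and with a correction for GC content and transcript length (0.68, adjusted p = 0.0407), and was 0.34 (adjusted p = 0.283) without Nlrp3-/- replicate 4.

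Clec4e, whose product Mincle binds the mycobacterial cord factor and a nuclear protein of dead cells, was at 81.2, 209, 163 and 111 CPM in WT and at 106, 99.97, 92.3 and 135 CPM in Nlrp3-/- M-MDSCs. G-MDSCs held 483, 330.3, 562 and 462 CPM in WT and 683, 719, 742 and 977 CPM in Nlrp3-/- mice. All 4 Nlrp3-/- G-MDSC libraries were above the 4 WT ones, whereas in M-MDSCs the genotypes overlapped and the highest libraries were WT replicates 2 and 3. Clec4e rose in Nlrp3-/- G-MDSCs, from 459 ± 96.1 to 780 ± 133 CPM (SD, n = 4), with a log2 fold change of 0.68 (SE 0.18, adjusted p = 0.0189). In M-MDSCs the log2 fold change was -0.36 (SE 0.26, adjusted p = 0.384). The call in G-MDSCs was lost without WT replicate 2 (0.56, adjusted p = 0.0436, below 1.5-fold) and without Nlrp3-/- replicate 4 (0.57, adjusted p = 0.0675). G-MDSCs exceeded M-MDSCs by a log2 fold change of 1.70 (SE 0.28, adjusted p = 0.000242) in WT and 2.73 (SE 0.19, adjusted p = 2.84e-08) in Nlrp3-/- mice.

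Clec4n, which encodes the mannan receptor Dectin-2, was the gene of the 10 that rose in Nlrp3-/- M-MDSCs. Its levels there were 41.8, 39.2, 41.1 and 53.1 CPM, against 12.8, 32.9, 20.5 and 20.9 CPM in WT M-MDSCs. G-MDSCs had 128, 119, 255 and 177 CPM in WT and 200.3, 263, 235 and 491 CPM in Nlrp3-/- mice. In M-MDSCs the genotypes did not overlap, with the WT library of replicate 2 closest to the others, while in G-MDSCs WT replicate 3 lay among the Nlrp3-/- libraries and Nlrp3-/- replicate 4 far above the rest. The log2 fold change was 1.03 (SE 0.26, adjusted p = 0.0264, 2.04-fold) in M-MDSCs and 0.71 (SE 0.29, adjusted p = 0.0983) in G-MDSCs. The call in M-MDSCs was lost when WT replicate 3 (1.00, adjusted p = 0.0658), WT replicate 4 (1.01, adjusted p = 0.0794) or Nlrp3-/- replicate 4 (0.89, adjusted p = 0.0972) was left out. It held without WT replicate 2 (1.32, adjusted p = 0.0134), the library with the most neutrophil marker RNA. That library also had the most Clec4n of its group, so leaving it out raises the fold change by itself. In G-MDSCs a call was gained without WT replicate 3 (1.00, adjusted p = 0.0247) and with no filter on low counts (0.72, adjusted p = 0.0207), and the value was 0.38 (adjusted p = 0.352) without Nlrp3-/- replicate 4. Over M-MDSCs, G-MDSCs were 7.76-fold higher in WT (log2 2.96, SE 0.31) and 6.23-fold higher in Nlrp3-/- mice (log2 2.64, SE 0.26).

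Clec7a encodes Dectin-1, the β-glucan receptor, which carries its own Syk-binding motif. It held 452, 363, 367 and 458 CPM in WT and 456, 389, 446 and 481 CPM in Nlrp3-/- M-MDSCs, and 1522, 1306, 2033 and 1985 CPM in WT and 1663, 1953, 1962 and 2751 CPM in Nlrp3-/- G-MDSCs. The subsets were apart in both genotypes, at 4.18-fold in WT (log2 2.06, SE 0.20, adjusted p = 3.65e-06) and 4.33-fold in Nlrp3-/- mice (log2 2.11, SE 0.18, adjusted p = 2.33e-07). The genotypes overlapped in both subsets, with log2 fold changes of 0.14 (95% interval -0.19 to 0.47) in M-MDSCs and 0.20 (-0.22 to 0.61) in G-MDSCs.

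Clec5a encodes MDL-1, which pairs with DAP12 and DAP10. In M-MDSCs it was at 14.7, 29.8, 24.4 and 19.2 CPM in WT and at 19.7, 9.55, 12.9 and 10.1 CPM in Nlrp3-/- mice. G-MDSCs reached 139, 161, 154 and 182 CPM in WT and 140.0, 101, 81.4 and 115 CPM in Nlrp3-/- mice. Of the 4 Nlrp3-/- libraries of each subset, 3 were below all WT libraries, and replicate 1 lay within the WT range. Clec5a fell in Nlrp3-/- G-MDSCs, by 0.63 on the log2 scale (SE 0.18, adjusted p = 0.0279), and in M-MDSCs the log2 fold change was -0.72 (SE 0.30, adjusted p = 0.134). The call in G-MDSCs was lost without WT replicate 2 or 4 or Nlrp3-/- replicate 2, 3 or 4 (-0.64 to -0.51 on the log2 scale), with library size as the only scaling (-0.50, adjusted p = 0.0753), in the model of all 16 libraries (-0.54, adjusted p = 0.105) and with a correction for GC content and transcript length (-0.21, adjusted p = 0.460). A call in M-MDSCs appeared without Nlrp3-/- replicate 1 (-1.05, adjusted p = 0.0223). The excess in G-MDSCs was 7.17-fold in WT (log2 2.84, SE 0.22) and 7.65-fold in Nlrp3-/- mice (log2 2.94, SE 0.27).

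Clec4a1, Clec4a2 and Clec4a3 belong to the family of the dendritic cell immunoreceptor DCIR, and Clec4a2 encodes DCIR itself, an inhibitory receptor. Clec4a1 was at 630.2, 407, 474 and 431 CPM in WT and at 547, 664, 972 and 688 CPM in Nlrp3-/- M-MDSCs. In G-MDSCs it was at 45.7, 33.8, 61.5 and 34.6 CPM in WT and at 76.0, 83.9, 92.2 and 103 CPM in Nlrp3-/- mice. M-MDSCs were above G-MDSCs in every library, and within G-MDSCs all 4 Nlrp3-/- libraries were above all WT ones. Clec4a1 was lower in G-MDSCs than in M-MDSCs, with log2 fold changes of -3.46 (SE 0.24, adjusted p = 2.46e-07) in WT and -3.13 (SE 0.19, adjusted p = 1.09e-08) in Nlrp3-/- mice. It rose in Nlrp3-/- G-MDSCs, from 43.9 ± 12.9 to 88.7 ± 11.4 CPM (SD, n = 4), with a log2 fold change of 0.92 (SE 0.21, adjusted p = 0.00799), and this call held without any 1 library and under every other setting tried, with values of 0.82 to 1.15. In M-MDSCs the log2 fold change was 0.58 (SE 0.20, adjusted p = 0.0750), and it passed the test with library size as the only scaling (0.68, adjusted p = 0.0414) and without WT replicate 1 (0.75, adjusted p = 0.0385) or Nlrp3-/- replicate 1 (0.66, adjusted p = 0.0425).

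Clec4a3 showed the same side of the subsets as Clec4a1, without a call between genotypes. M-MDSCs held 302, 249, 217 and 308 CPM in WT and 234, 321, 435 and 262 CPM in Nlrp3-/- mice, and G-MDSCs 41.7, 25.4, 30.3 and 44.8 CPM and 46.7, 42.7, 49.5 and 44.6 CPM. Its log2 fold change of G-MDSCs over M-MDSCs was -2.92 (SE 0.22, adjusted p = 4.45e-07) in WT and -2.88 (SE 0.20, adjusted p = 2.84e-08) in Nlrp3-/- mice. The genotypes overlapped in both subsets, with log2 fold changes of 0.24 (95% interval -0.19 to 0.67) in M-MDSCs and 0.29 (-0.16 to 0.74) in G-MDSCs.

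Clec4a2 was at 77.9, 149, 120.2 and 119 CPM in WT and at 136, 114, 138 and 133 CPM in Nlrp3-/- M-MDSCs, and at 136, 135, 120.4 and 174 CPM in WT and 184, 142, 150.4 and 185 CPM in Nlrp3-/- G-MDSCs. Its groups lay close together, and the Nlrp3-/- G-MDSC libraries alone were above all M-MDSC libraries of their genotype. No comparison passed the test, with log2 fold changes of 0.28 (95% interval -0.16 to 0.72) and 0.23 (-0.11 to 0.57) between subsets in WT and Nlrp3-/- mice. These 2 values became -0.47 and -0.49 with library size as the only scaling. The last 500 bases of a Clec4a2 transcript match Clec4a4, its neighbor in the family, at 96.9% over 224 bases. Reads of the pair may thus have been lost or assigned to the wrong gene in counting. Clec4a4 had group means of 1.62 to 6.51 CPM.

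Clec12a encodes MICL, an inhibitory receptor for uric acid crystals of dead cells. M-MDSCs held 123, 114, 112 and 128 CPM in WT and 147, 129, 199 and 148 CPM in Nlrp3-/- mice. G-MDSCs held 95.8, 119, 109.5 and 101 CPM in WT and 145, 122, 109.6 and 129 CPM in Nlrp3-/- mice. All Nlrp3-/- M-MDSC libraries were above all WT ones, by a narrow margin, while the other groups overlapped. The difference between genotypes in M-MDSCs did not pass the test (log2 fold change 0.41, SE 0.16, adjusted p = 0.111), nor did that in G-MDSCs (0.16, SE 0.16, adjusted p = 0.511). Between subsets the log2 fold changes were -0.16 (95% interval -0.47 to 0.14) in WT and -0.41 (-0.78 to -0.05, adjusted p = 0.0543) in Nlrp3-/- mice.

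Olr1 had the fewest counts of the 10, 9 to 66 per library. It was at 2.97, 9.28, 9.45 and 3.08 CPM in WT and at 3.96, 6.65, 1.88 and 2.83 CPM in Nlrp3-/- M-MDSCs, and at 7.01, 14.6, 15.0 and 9.73 CPM in WT and 4.62, 2.22, 4.14 and 5.51 CPM in Nlrp3-/- G-MDSCs. WT G-MDSCs were above all Nlrp3-/- G-MDSC libraries but overlapped WT M-MDSCs, WT M-MDSCs fell into a pair of high and a pair of low libraries, and the same mice, replicates 2 and 3, gave the higher values in both subsets. Olr1 fell in Nlrp3-/- G-MDSCs by 1.58 on the log2 scale (SE 0.40, adjusted p = 0.0146), a call that was lost without WT replicate 3 (-1.40, adjusted p = 0.0509) and with the correction for GC content and length (-1.20, adjusted p = 0.0635). In M-MDSCs the log2 fold change was -0.69 (95% interval -1.76 to 0.38, adjusted p = 0.365). Between subsets Olr1 differed by 0.87 (SE 0.43, adjusted p = 0.102) in WT mice, and with the mouse as a block, which pairs the subsets of a mouse, this became 0.97 and passed the test (adjusted p = 0.0157). In Nlrp3-/- mice the value was -0.01 (95% interval -1.12 to 1.09), and it took either sign over the other settings.

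**Figure D2:**
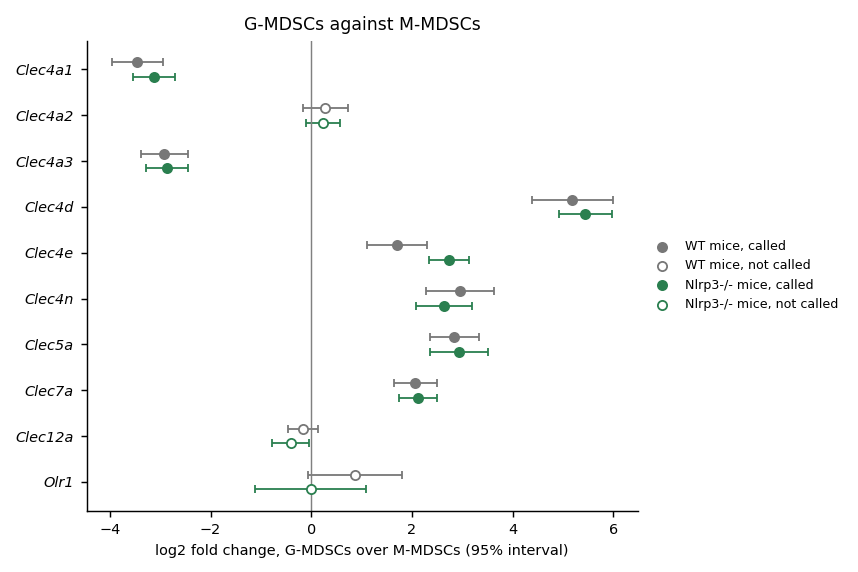
Log2 fold change of G-MDSCs over M-MDSCs for each gene with its 95% interval, in WT (grey) and Nlrp3-/- mice (green), with filled points for calls. Clec4d lies farthest to the right (5.19 and 5.44) and Clec4a1 farthest to the left (-3.46 and -3.13), and Clec4a2, Clec12a and Olr1 are open in both genotypes.

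The study asked what loss of Nlrp3 does to each subset. In M-MDSCs 1 of the 10 genes was called higher (Clec4n) and 0 lower, against 3.51% and 7.1% of all genes tested, and 2 had genotypes that did not overlap (Clec4n and Clec12a), against 19.3%. Besides Clec4n, 3 genes had an unadjusted p under 0.05 in this quasi-likelihood test, namely Clec4a1 and Clec12a with positive values and Clec5a with a negative one, and DESeq2 and edgeR's exact test also called 1 gene higher and 0 lower. In G-MDSCs 2 were called higher (Clec4a1 and Clec4e) and 2 lower (Clec5a and Olr1), against 4.7% and 11.7% of all genes, and 3 did not overlap (Clec4a1, Clec4e and Olr1), against 24.4%. The median log2 fold change of the 10 genes was 0.20 in M-MDSCs and 0.24 in G-MDSCs, beside 0.07 and 0.03 over all genes. Of all calls, 66.9% were lower in Nlrp3-/- M-MDSCs and 71.4% in Nlrp3-/- G-MDSCs, which became 45.4% and 51.9% with library size as the only scaling, where the medians over all genes were 0.17 and 0.16.

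**Figure D3:**
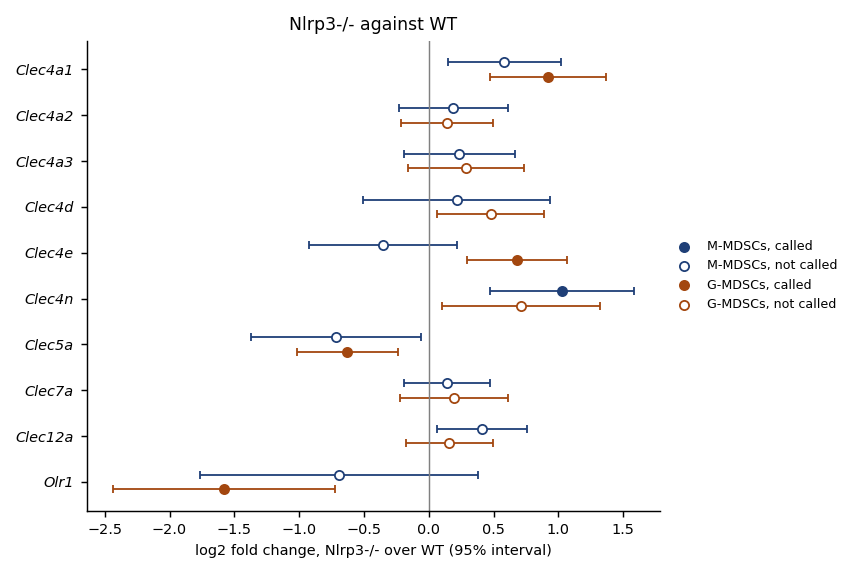
Log2 fold change of Nlrp3-/- over WT for each gene with its 95% interval, in M-MDSCs (blue) and G-MDSCs (brown), with filled points for calls. The 5 filled points are Clec4n in M-MDSCs (1.03) and Clec4a1 (0.92), Clec4e (0.68), Clec5a (-0.63) and Olr1 (-1.58) in G-MDSCs.

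Some cell type markers differed between the genotypes as well. Red pulp macrophage markers, a list of 9 genes, summed to 146 to 164 CPM in WT and 275 to 399 CPM in Nlrp3-/- M-MDSCs, and to 430.1 to 747 CPM in WT and 960.4 to 1222 CPM in Nlrp3-/- G-MDSCs, with 6 of 8 tested called higher in each subset. Much of the G-MDSC sum was Slc40a1 alone, with means of 447 CPM in WT and 596 CPM in Nlrp3-/- mice. In M-MDSCs that gene had 6.03 and 19.6 CPM. The complement genes C1qa (log2 fold change 2.44, SE 0.20) in M-MDSCs and C1qc (1.92, SE 0.23) in G-MDSCs had the smallest p of this list. Dendritic cell markers, a list of 10, summed to 1173 to 1646 CPM in WT and 1645 to 2691 CPM in Nlrp3-/- M-MDSCs, and to 1103 to 1671 CPM and 1814 to 2947 CPM in G-MDSCs. The dendritic cell markers called, all higher, were MHC class II genes, 2 of 8 tested in M-MDSCs (H2-Aa 0.84, SE 0.20, and H2-Eb1 0.87, SE 0.22) and 3 of 7 in G-MDSCs (H2-Eb1 0.76, SE 0.18, H2-Aa 1.11, SE 0.26, and H2-Ab1 0.73, SE 0.20). The 5 NK cell markers summed to 35.1 to 70.9 CPM in WT and 90.2 to 136 CPM in Nlrp3-/- M-MDSCs, and to 21.0 to 47.9 CPM and 53.8 to 92.1 CPM in G-MDSCs. Of the NK cell markers, Gzma alone was called, 1 of 5 tested in M-MDSCs (log2 fold change 1.24, SE 0.31) and 1 of 4 in G-MDSCs (1.29, SE 0.26), while Eomes had values of -0.31 and -1.66. Of the neutrophil markers, Retnlg (2.44, SE 0.53, adjusted p = 0.0151) and Mmp9 (2.22, SE 0.49, adjusted p = 0.0169) rose in Nlrp3-/- M-MDSCs, 0 of 10 fell, and the median of the list was -0.66. In G-MDSCs 1 of 11, Cxcr2, fell by 1.26 (SE 0.22) and 0 rose. Of the monocyte markers, 1 of 10 tested was called higher and 0 lower in Nlrp3-/- G-MDSCs, with a median of 0.17. Among those tested in M-MDSCs, 1 of 12, Klf4, fell by 0.85 (SE 0.17, adjusted p = 0.0105) and 0 rose (median 0.08). No marker of the macrophage and dendritic cell lists was at 0 in all libraries of a group, apart from Mertk in WT M-MDSCs and Xcr1 in Nlrp3-/- G-MDSCs. Yet group means of Zbtb46 (0.336 to 0.679 CPM), Xcr1 (0 to 0.370 CPM) and Mertk (0 to 0.351 CPM) lay near the floor of 3 counts. Cd74 and the MHC class II genes had group means of 233 to 591 CPM. Ciita, without a call, was at 14.0 (WT) and 9.75 CPM (Nlrp3-/-) in M-MDSCs and at 11.4 and 8.26 CPM in G-MDSCs. The part of the cells marked by these lists in the higher Clec4a1, Clec4e and Clec4n of Nlrp3-/- cells was not tested.

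The genotype effect itself was compared between the subsets in a model of all 16 libraries. By the quasi-likelihood test 0 of the 10 genes differed, against 0.0187% of all genes called higher and 0.00935% called lower, and DESeq2 also called 0 of them. Clec4e was the gene with an unadjusted p under 0.05. Its genotype effect was larger in G-MDSCs by 1.15 on the log2 scale (SE 0.34, unadjusted p = 0.00279, adjusted p = 0.790), and that of Olr1 differed by -0.77 (SE 0.66, adjusted p = 0.992). Without 1 library the value of Clec4e ran from 0.71 to 1.34. A call in 1 subset alone, as for Clec4n, Clec4a1, Clec4e, Clec5a and Olr1, was therefore not shown to be a difference between them.

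**Figure D4:**
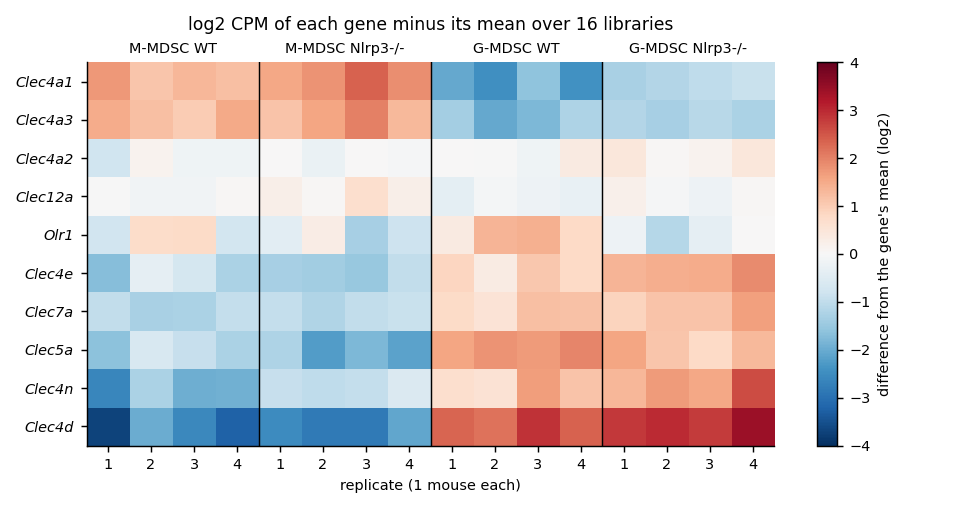
Difference of the log2 CPM of each gene from its own mean over 16 libraries, by group and replicate, from blue (lower) to red (higher). Clec4a1 and Clec4a3 are red in M-MDSCs and blue in G-MDSCs, Clec4e, Clec7a, Clec5a, Clec4n and Clec4d show the opposite, and Clec4a2 (-0.80 to 0.45) and Clec12a (-0.38 to 0.67) take either sign in both subsets.

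The partners that carry the signals of these receptors were examined as a list of 22 genes, of which 21 passed the filter on low counts and Src did not. Between subsets, 11 of the 21 were higher in G-MDSCs of WT mice and 1, Nfkb1, lower, with a median log2 fold change of 0.70, and 10 were higher and 0 lower in Nlrp3-/- mice (median 0.61). In WT mice the smallest p were those of Hcst (2.67, SE 0.20), Nfatc1 (1.38, SE 0.15), Fgr (1.42, SE 0.17) and Inpp5d (1.14, SE 0.13), which encode the adaptor DAP10, a transcription factor, a Src-family kinase and the inositol phosphatase SHIP-1. In Nlrp3-/- mice they were those of Hcst (2.40, SE 0.16), Tyrobp (1.60, SE 0.16), Ptpn6 (1.38, SE 0.14) and Fgr (1.34, SE 0.15). Between genotypes, 2 of the 21 rose and 4 fell in M-MDSCs (median 0.02), and 1 rose and 5 fell in G-MDSCs (median 0.14). The 4 smallest p in both subsets belonged to Vav3, Ptpn11, Rel and Rela. Vav3, an exchange factor downstream of Syk, fell by 1.10 (SE 0.20, adjusted p = 0.00751) in M-MDSCs and by 1.52 (SE 0.21, adjusted p = 0.000313) in G-MDSCs. Ptpn11, the phosphatase SHP-2, fell by 0.88 (SE 0.18) and by 0.93 (SE 0.21). Of the NF-kB subunits, Rel fell by 1.10 (SE 0.25) and by 1.40 (SE 0.28), while Rela rose by 0.77 (SE 0.18) and 0.82 (SE 0.18).

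**Figure D5:**
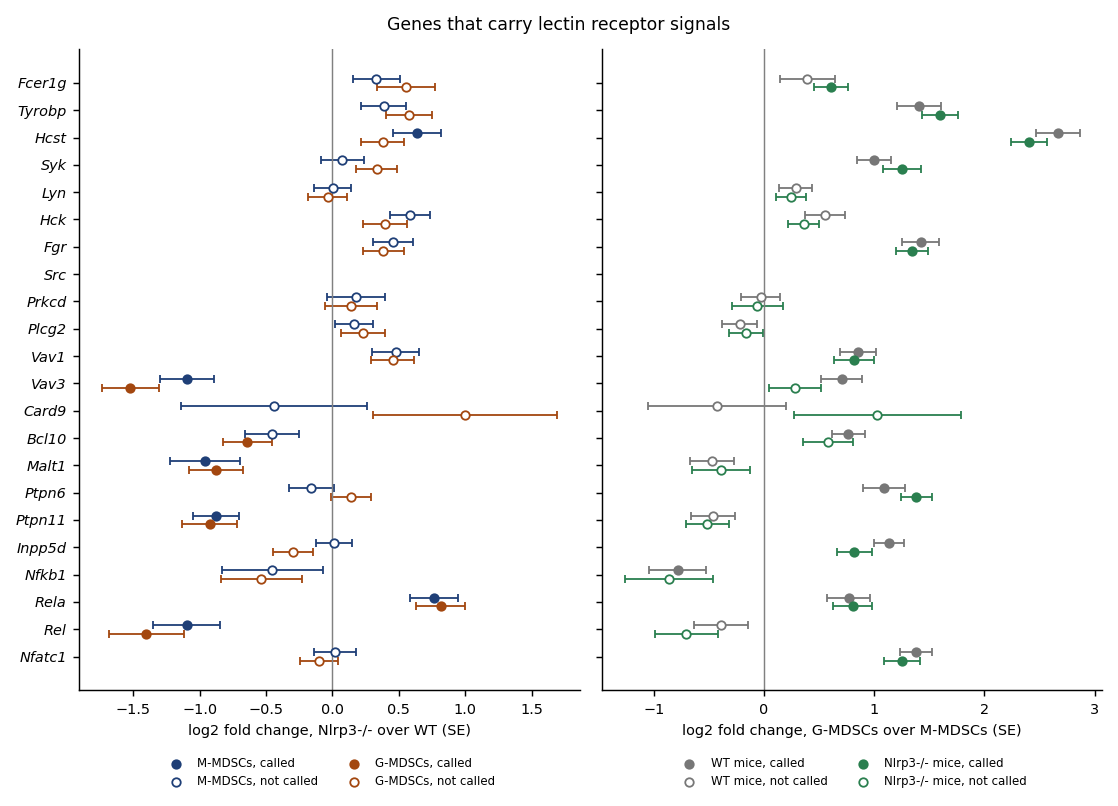
Log2 fold change (whiskers, SE) of the 22 genes that carry lectin receptor signals, Nlrp3-/- over WT on the left and G-MDSCs over M-MDSCs on the right, with filled points for calls; Src was not tested. On the left Vav3, Ptpn11, Malt1 and Rel are called lower and Rela higher in both subsets, and on the right Hcst (2.67 and 2.40) lies farthest to the right.

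Genes known to respond to these receptors, a list of 11 cytokines, chemokines and transcription factors, passed the filter in 6 to 7 cases. In G-MDSCs against M-MDSCs 5 were higher and 0 lower in both genotypes, among them Il1b (log2 fold change 5.58, SE 0.37, in WT and 6.72, SE 0.25, in Nlrp3-/- mice). Between genotypes 0 of 6 were called in M-MDSCs by the quasi-likelihood test, where Egr3 had the smallest adjusted p (0.0525). In G-MDSCs 3 of 7 rose, Egr2 by 1.99 (SE 0.40, adjusted p = 0.00409), Egr3 by 1.24 (SE 0.35, adjusted p = 0.0262) and Il1b by 0.70 (SE 0.22, adjusted p = 0.0378), and 0 fell. Egr2 and Egr3 encode early growth response factors induced through calcium and NFAT.

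Other C-type lectins were examined as a list of 29 genes. In WT mice 8 of 18 tested were higher and 7 lower in G-MDSCs (median 0.32), and in Nlrp3-/- mice 8 and 7 of 19 (median -0.25). The galactose receptor gene Clec10a was near the floor of 3 counts in G-MDSCs, with group means of 0.06 and 0.87 CPM against 43.4 and 74.1 CPM in M-MDSCs. Between genotypes Clec10a (0.81, SE 0.20, adjusted p = 0.0271) and Clec4a4 (2.08, SE 0.57, adjusted p = 0.0389) rose in M-MDSCs and 0 of 16 fell. For Clec4a4 the limit from its match with Clec4a2 applies. In G-MDSCs Ly75, which encodes the uptake receptor DEC-205, fell by 1.65 (SE 0.36, adjusted p = 0.00667) and 0 of 16 rose. Scavenger receptors, the class to which LOX-1 belongs by function, were 16 genes. Lower levels in G-MDSCs were called for 6 of 9 in WT (among them Lrp1, Scarb1 and Msr1, with log2 fold changes of -5.31, -4.40 and -7.87) and for 8 of 13 in Nlrp3-/- mice, where 1 was higher. Marco rose in Nlrp3-/- M-MDSCs (2.55, SE 0.70, adjusted p = 0.0376) and Cd163 in Nlrp3-/- G-MDSCs (2.26, SE 0.55, adjusted p = 0.0116), and both are genes of tissue macrophages. Near the floor as well were Marco in WT M-MDSCs (mean 0.37 CPM, against 2.53 CPM in Nlrp3-/- M-MDSCs) and Msr1 in WT G-MDSCs (0.40 CPM).

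The genes whose levels ran most like those of the receptors were found by the root mean square difference of centered log2 CPM over the 16 libraries, among 10696 genes. Nearest to Clec4d were Stfa1 (0.381) and Rdh12 (0.387), to Clec4e Rnf149 (0.255) and Lcp1 (0.315), to Clec4n Gcnt1 (0.312) and Sun2 (0.337). Clec5a lay near Pla2g7 (0.280), and Clec7a was nearest to Gng12 (0.199) and Fam63a (0.217). For the genes of M-MDSCs they were Lgals3bp (0.304) and Inf2 (0.326) for Clec4a1, and Rhoq (0.174) and Snd1 (0.236) for Clec4a3. The nearest of all to any was Acly to Clec12a (0.155), followed for that gene by Ctu2 (0.160). Clec4a2 was nearest to Rbbp4 (0.196) and Hnrnpa0 (0.207), and Olr1 to B3gnt5 (0.337) and Birc2 (0.423). Within the 10 genes, the shortest distance was that of Clec4a2 and Clec12a (0.377), followed by Clec4e and Clec7a (0.432). By rank, Clec4a1 and Clec4a3 (0.447) were the closest neighbors. Clec4a3 was 14th of all genes for Clec4a1, and Clec4a1 was 48th for Clec4a3. Clec4d, Clec4n and Clec4e, which lie side by side, ranked lower for each other (Clec4n 316th for Clec4d at 1.36, Clec4e 90th for Clec4n at 0.592).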

How the data were processed

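mRNA of the 16 libraries was measured by QuantSeq 3′ sequencing (with a number of amplification cycles that differed between libraries and is not assigned to them in the sources used here). Per the labels and the study's methods, the authors mapped reads to mm10 with hisat2 2.1.0, counted them by strand with htseq-count, and deposited whole-number counts per gene symbol without normalization, used here as they are. Genes below the minimum of filterByExpr were dropped, and counts were tested in R 4.3.3 with edgeR 4.0.16 by the quasi-likelihood test after TMM, within each pair of groups, and in a model of all 16 libraries for the difference between genotype effects. The SE is the log2 fold change divided by the square root of F. The alternatives used DESeq2 1.42.0, other scalings and filters, a block, a correction for GC content and transcript length (splines with 4 degrees of freedom), and each library left out. Of these methods the quasi-likelihood test alone was tried on simulated data, with planted changes of a fixed size. The alternatives were not.

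The members and gene lists were chosen with earlier results of these data known. The genes named from a list are those with the 4 smallest p, and those named for likeness the nearest pair, apart from items that are not reported here. P-values of the genotype comparisons within a subset measure the spread between mice. No term for the mouse was in the tests between subsets or of the difference between genotype effects. Libraries of 1 mouse were there treated as independent. With the mouse as a block, the difference between genotype effects for Clec4e was 1.08 (quasi-likelihood test, adjusted p = 0.282). The labels place both subsets of a replicate number in 1 mouse, and the deviations of such libraries from their group means had mean correlations of 0.239 (WT) and 0.190 (Nlrp3-/-). None of the 24 pairs of libraries within a group was identical (chi-square per degree of freedom 6.76 to 50.6). Loci came from GENCODE M21, promoters from RefSeq and 3′ similarity from BLAST 2.17.0.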

Additional observations from a re-analysis of the deposited data

How the results depend on the processing

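Of 1005 repeats of the 50 member results under other settings, 945 kept direction and call, 21 lost a call, 13 gained one and 26 changed sign. The 7 calls between subsets kept their number in both genotypes without any 1 library and under the other settings, apart from 8 with library size only (both genotypes) and with the replicate block in WT mice, alone or with the GC content and length correction. Same-numbered WT and Nlrp3-/- libraries come from different mice (mean correlations of -0.157 in M-MDSCs and -0.152 in G-MDSCs), so a replicate block pairs them by number only. With it 425 genes were called in M-MDSCs (423 of them among the 1060 called without it) and 985 in G-MDSCs (979 among the 1522), with 0 and 2 members. Under this block Clec4n in M-MDSCs was 1.09 (adjusted p = 0.0653), and in G-MDSCs Clec5a was -0.65 (0.0671) and Olr1 -1.56 (0.0623). With the GC content and length correction 659 and 964 genes were called (56.4% and 57.5% of them lower, 495 and 693 shared with the calls without it), and with the replicate block as well 47 and 396 (45 and 343 shared) and 0 and 2 members. Library size only called 2 members in M-MDSCs. Without 1 library, calls ran from 450 to 1783 in M-MDSCs (0 to 3 members) and from 1104 to 1544 in G-MDSCs (2 to 5 members), the lowest without Nlrp3-/- replicate 4 of the subset and the highest in M-MDSCs without Nlrp3-/- replicate 1. For the difference between genotype effects 3 genes were called, 5 with no filter, 8 by DESeq2 and 2 to 5 without 1 library. The causes were not tested.

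Changes of sign concerned values that did not pass the test. Clec4e in M-MDSCs became 0.0093 with the GC content and length correction and 0.064 with the block as well, and Clec4d there ran from -0.010 to 0.61 without 1 library. Between subsets with library size only, Clec4a2 became -0.47 in WT and -0.49 in Nlrp3-/- mice (adjusted p = 0.0129, below 1.5-fold). Olr1 between subsets of Nlrp3-/- mice became 0.035 with DESeq2 size factors and with DESeq2, 0.10 in the model of all libraries, 0.089 with the replicate block, 0.083 with the GC content and length correction, 0.17 with both, and -0.23 to 0.35 without 1 library. For the difference between genotype effects Clec4a2 became -0.014 with DESeq2 size factors, -0.028 with library size only, -0.013 with DESeq2 and -0.25 to 0.22 without 1 library, and the ranges without 1 library were -0.12 to 0.35 for Clec4a3, -0.18 to 0.60 for Clec4d, -0.67 to 0.070 for Clec4n, -0.16 to 0.37 for Clec5a and -0.33 to 0.0016 for Clec12a. Olr1 had 9 to 66 counts per library.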
